A study of Homo sapiens with 24 samples.

Results

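RNA levels of 10 genes used as markers of fibroblasts and other mesenchymal cells were followed across human stem cell cultures differentiating toward heart muscle. The genes were PDGFRA, PDGFRB, POSTN, DCN, LUM, FBLN1, FN1, THY1, FAP and DDR2, taken by name from the 62757 genes of the count table, and all 10 had a row in it. They were chosen by name and not by a value, but with earlier results of these data known. The cells came from HES3, an established human embryonic stem cell line, carrying a GFP reporter at NKX2-5 and an mCherry reporter at NR2F2 in every group. CRISPR-Cas9 had been used against LHX2, ZNF503 or ZNF711, or against TRAC, the T cell receptor alpha constant gene, as the control target. Each of the 4 targets was carried through 2 differentiation protocols named AM and VM, with 3 libraries numbered 1, 2 and 3 in each of the 8 groups, 24 in all. AM was read as the atrial protocol, which received retinoic acid at day 4, and VM as the ventricular protocol, which did not. Both were embryoid body cultures driven by modulating Wnt signalling and kept for at most 14 days. Whether libraries of a group came from separate cultures, and how many edited clones or pools lay behind a target, was not stated, so the p-values measure the spread between these libraries.

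The 10 genes fall into 3 kinds. PDGFRA and PDGFRB are receptor tyrosine kinases for platelet-derived growth factors, and DDR2 is a receptor tyrosine kinase that binds fibrillar collagen. POSTN (periostin), DCN (decorin), LUM (lumican), FBLN1 (fibulin-1) and FN1 (fibronectin) are secreted into the extracellular matrix. THY1 (CD90) is a cell surface glycoprotein and FAP (fibroblast activation protein) a surface serine protease. In the heart, fibroblasts arise largely from the epicardium and lay down the collagen matrix between muscle cells. None of the genes belongs to fibroblasts alone. PDGFRA marks early cardiac mesoderm as well, PDGFRB marks pericytes and smooth muscle, and FN1 is made by many cell types, liver-type cells and early endoderm among them.

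All positions are on GRCh38. PDGFRA lies on chromosome 4 from 54229097 to 54298247 on the plus strand, PDGFRB on chromosome 5 from 150113837 to 150155872 on the minus strand, and DDR2 on chromosome 1 from 162631373 to 162787400 on the plus strand. POSTN lies on chromosome 13 from 37562583 to 37598844 on the minus strand. DCN spans 91140484 to 91183123 and LUM 91102629 to 91111831 on the minus strand of chromosome 12, with 28.7 kb between them. FBLN1 lies on chromosome 22 from 45502238 to 45601135 on the plus strand and FN1 on chromosome 2 from 215360440 to 215436172 on the minus strand. THY1 lies on chromosome 11 from 119417378 to 119424985 and FAP on chromosome 2 from 162170684 to 162245151, both on the minus strand. The antisense gene USP2-AS1 overlaps THY1 and held 832 counts over the 24 libraries against 1762 for THY1. Whether counting used the strand was not stated, so some THY1 reads may belong to that gene.

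Retinoic acid acts through nuclear receptors that bind the half-site AGGTCA or AGTTCA, and several mesenchymal regulators bind the E-box CANNTG. The start-site windows of the receptors are shown because PDGFRA and DDR2 differed between a protocol with and one without retinoic acid, while PDGFRB did not pass the test. They come from RefSeq on GRCh38.p14, run from 250 bases before to 50 bases after a start site, and are written 5′ to 3′ on the strand of the gene, with every half-site and E-box in capitals. RefSeq windows were found for 6 of the 10 genes.
PDGFRA, window 1, plus strand, chr4:54229043-54229342: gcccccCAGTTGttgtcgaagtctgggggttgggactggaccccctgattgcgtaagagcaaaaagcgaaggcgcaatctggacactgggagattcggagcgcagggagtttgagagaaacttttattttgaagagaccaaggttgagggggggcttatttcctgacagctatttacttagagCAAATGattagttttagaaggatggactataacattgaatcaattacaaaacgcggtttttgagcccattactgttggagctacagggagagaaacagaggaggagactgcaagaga
PDGFRA, window 2, plus strand, chr4:54233710-54234009: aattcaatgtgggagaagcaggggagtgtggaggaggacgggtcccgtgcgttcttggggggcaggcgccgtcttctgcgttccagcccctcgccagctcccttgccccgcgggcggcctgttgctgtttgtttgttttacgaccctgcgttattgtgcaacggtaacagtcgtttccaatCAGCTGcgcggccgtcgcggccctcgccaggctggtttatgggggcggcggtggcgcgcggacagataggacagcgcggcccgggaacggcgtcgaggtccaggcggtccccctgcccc
PDGFRB, minus strand, chr5:150155796-150156095: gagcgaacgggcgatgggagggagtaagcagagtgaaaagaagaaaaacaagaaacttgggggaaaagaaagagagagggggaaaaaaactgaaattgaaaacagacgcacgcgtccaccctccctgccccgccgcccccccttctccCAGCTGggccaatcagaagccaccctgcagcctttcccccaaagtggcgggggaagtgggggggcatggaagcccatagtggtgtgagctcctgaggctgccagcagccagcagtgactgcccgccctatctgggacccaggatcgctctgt
DDR2, window 2 of 3, plus strand, chr1:162631725-162632024: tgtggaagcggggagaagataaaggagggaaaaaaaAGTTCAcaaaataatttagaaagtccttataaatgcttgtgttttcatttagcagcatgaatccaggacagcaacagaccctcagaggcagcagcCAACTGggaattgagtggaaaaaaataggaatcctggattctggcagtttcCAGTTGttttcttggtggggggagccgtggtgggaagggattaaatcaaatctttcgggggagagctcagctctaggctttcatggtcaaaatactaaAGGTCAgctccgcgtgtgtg

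Neither PDGFRA window nor the PDGFRB window held either half-site on either strand. The DDR2 window printed held AGTTCA at position -214 and AGGTCA at position 30, both on the plus strand. Of the windows not printed, that of POSTN, which gave no call between the protocols, held AGTTCA at position -81. DDR2 window 3 and the FBLN1 and FN1 windows held no half-site. Half-sites were searched in both orientations, and in the other DDR2 window that holds them, not printed, 1 half-site overlaps an E-box. Of 35116 RefSeq windows of 300 bases, 22.6% held at least 1 half-site and 68.7% at least 1 E-box, so these letters are common. The CANNTG in PDGFRA window 1 read CAGTTG and CAAATG, and the 1 in window 2 and the 1 in the PDGFRB window both read CAGCTG. A match is letters in a window and was not tied to binding or to a level here, and most distal control elements lie outside such windows.

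The libraries held 2899786 to 7438010 counts, and mitochondrial genes took 1.31% to 3.72% of them. Levels below are CPM, the counts of a gene relative to the library size, with library sizes scaled by the trimmed mean of M values, and 3 counts, taken as the floor of detection, equalled 0.403 to 1.035 CPM. Such floors cover counting error only. The cells are labelled cardiomyocyte, and cardiomyocyte markers were present in every library. The summed level of 12 of them was 15203 to 30254 CPM in AM and 11894 to 42249 CPM in VM. NR2F2, an atrial transcription factor, was at 318 to 512 CPM in the 12 AM libraries and 18.8 to 85.6 CPM in the 12 VM libraries. Of the targeted genes, ZNF503 RNA was higher and not lower in the libraries labelled ZNF503, at 254 to 365 CPM against 103 to 122 CPM for TRAC in AM. LHX2 held 2 to 14 counts in the libraries labelled LHX2 and 3 to 27 in TRAC. ZNF711 was at 31.1 to 55.6 CPM in the AM libraries labelled ZNF711 against 47.2 and above for TRAC, which overlap, and at 25.8 to 33.8 in VM against 34.5 to 47.7, which do not. Libraries numbered 3 of VM TRAC, LHX2 and ZNF503 stood apart from replicates 1 and 2 of the same groups. Their summed cardiomyocyte markers were 15729 to 21165 CPM against 37311 to 42249 CPM. The summed level of 10 hepatic endoderm markers (AFP, APOA1, APOB and others) was 11749 to 31695 CPM against 2025 to 5193 CPM, and all 3 VM ZNF711 libraries, at 13484 to 32791 CPM, resembled those numbered 3. The range in AM was 272 to 2545 CPM.

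Compared between genes on a per-length scale, as CPM per kb of merged exon, FN1 was by far the most abundant of the 10, with a median of 310 in AM and 480 in VM. FN1 alone held 0.433% to 1.10% of all counts and ranked between 2 and 6 among all genes of a library. PDGFRA came next in AM, at a median of 44.6 CPM per kb, ahead of FBLN1 at 20.6. In VM the order was turned, with medians of 16.0 for FBLN1 and 8.57 for PDGFRA, though their ranges overlapped. PDGFRB had a median of 6.50 and DDR2 of 5.66 CPM per kb in AM, and 6.80 and 3.11 in VM. The ranges of PDGFRB and DDR2 overlapped within each protocol, so their order is not fixed by these libraries. LUM, POSTN and THY1 lay between 1.97 and 3.22 CPM per kb at the median of either protocol, with overlapping ranges. DCN, at 0.806 in AM and 0.150 in VM, had the lowest median per kb of the genes counted in every library. Its range of 0.345 to 2.20 in AM overlapped those of LUM, POSTN and THY1, while its highest in VM, 0.862, was below them. The merged exon of DCN is 12.85 kb against 3.01 kb for LUM. In CPM its AM median, 10.3, was above that of LUM, 8.49. FAP had 6 counts in all 24 libraries together, 1 in AM LHX2 replicate 2, 4 in VM ZNF711 replicate 2 and 1 in VM ZNF711 replicate 3. Its 21 libraries without a count allow a level of up to 0.403 to 1.035 CPM, and it was not tested.

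The protocols were compared over all 4 targets together, asking whether the marker genes differ between AM and VM. PDGFRA, DDR2 and DCN were higher in AM and FN1 was lower, at an adjusted p under 0.05 in edgeR's quasi-likelihood test with Benjamini-Hochberg adjustment over 17724 genes. That is 4 of the 9 members tested, against a background of 34.5% of all genes tested, so the share of members is close to the share of genes. The median log2 fold change of the 9 was 0.22 and that of all tested genes -0.008. In bulk RNA, more cells of a type and more RNA per cell cannot be told apart.

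PDGFRA separated the protocols completely. In AM its levels in replicates 1, 2 and 3 were 428, 485 and 419 CPM for TRAC, 422, 420 and 397 for LHX2, 463, 440 and 440 for ZNF503, and 440, 468 and 379 for ZNF711. In VM they were 91.2, 103 and 73.4 CPM for TRAC, 102, 115 and 63.6 for LHX2, 92.9, 103 and 67.2 for ZNF503, and 51.4, 64.7 and 75.6 for ZNF711. Every AM library was thus above every VM library, and 4.24% of all genes tested did not overlap in one direction or the other. PDGFRA was 5.23-fold higher in AM (log2 fold change 2.39, SE 0.10, adjusted p = 5.65e-16, edgeR) and ranked 13 among the 17724 genes by p. Within AM it was the steadiest of the 3 receptors, with the highest library 1.28-fold above the lowest, against 2.29-fold for DDR2 and 3.15-fold for PDGFRB. The difference was called for each target on its own, at 2.31 (SE 0.19) for TRAC, 2.15 (SE 0.19) for LHX2, 2.35 (SE 0.19) for ZNF503 and 2.74 (SE 0.20) for ZNF711 on the log2 scale.

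**Figure D1:**
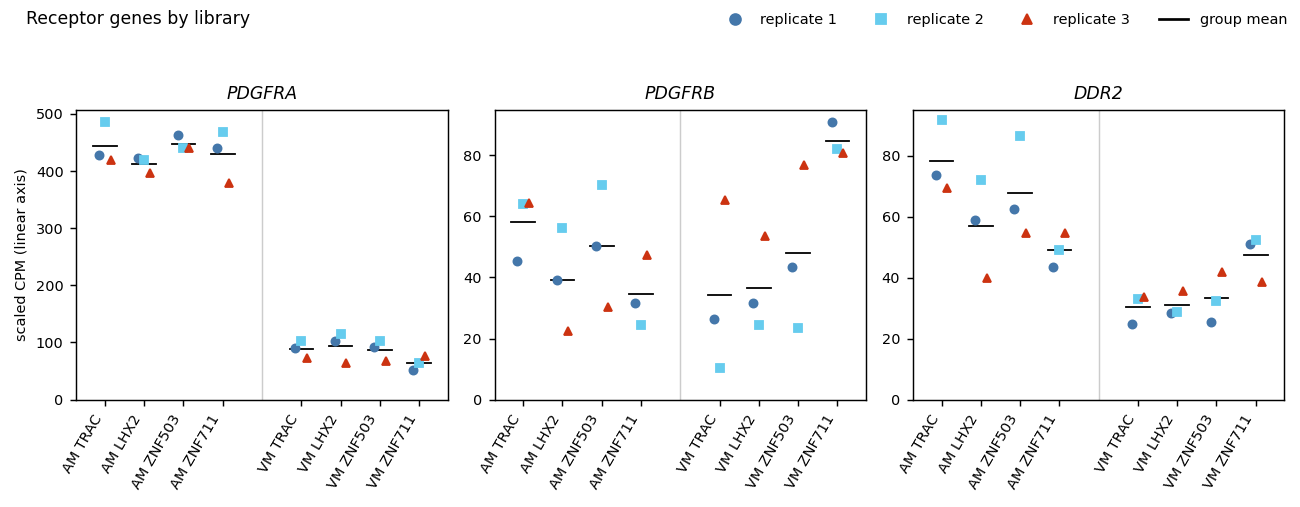
Scaled CPM (linear axis from 0) of the 3 receptor genes in each of the 24 libraries, with a point per library, colour and shape for the replicate number and a bar for the group mean of 3. PDGFRA lies at 379 to 485 CPM in AM and 51.4 to 115 CPM in VM, while the PDGFRB and DDR2 ranges of the protocols overlap.

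DDR2 was also higher in AM, but not for every target. Its AM levels were 73.6, 91.6 and 69.4 CPM for TRAC, 58.8, 72.1 and 40.0 for LHX2, 62.6, 86.3 and 54.6 for ZNF503, and 43.4, 49.0 and 54.5 for ZNF711. Its VM levels were 24.7, 33.1 and 33.7 CPM for TRAC, 28.4, 28.8 and 35.5 for LHX2, 25.5, 32.4 and 41.8 for ZNF503, and 51.0, 52.3 and 38.5 for ZNF711. The AM and VM groups did not overlap for TRAC, LHX2 and ZNF503, as was so for 26.1%, 23.9% and 23.5% of all genes tested, but those of ZNF711 did. Over the 4 targets DDR2 was 1.77-fold higher in AM (log2 fold change 0.83, SE 0.11, adjusted p = 1.47e-06, edgeR). By target the log2 difference was 1.36 (SE 0.22) for TRAC, 0.88 (SE 0.22) for LHX2 and 1.03 (SE 0.22) for ZNF503, all called, and 0.05 (SE 0.22, adjusted p = 0.922, edgeR) for ZNF711. The call for LHX2 was lost without AM LHX2 replicate 2, at a log2 difference of 0.67 and an adjusted p of 0.116 (edgeR).

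PDGFRB, the receptor of pericytes and smooth muscle, gave no call between the protocols over the 4 targets. In AM its levels were 45.5, 64.2 and 64.5 CPM for TRAC, 39.3, 56.1 and 22.4 for LHX2, 50.3, 70.4 and 30.4 for ZNF503, and 31.6, 24.5 and 47.2 for ZNF711. In VM they were 26.5, 10.5 and 65.3 CPM for TRAC, 31.8, 24.4 and 53.7 for LHX2, 43.4, 23.6 and 76.9 for ZNF503, and 90.8, 82.0 and 80.8 for ZNF711. The 3 VM ZNF711 libraries were the highest of all 24, and the lowest was VM TRAC replicate 2. Over the 4 targets the log2 difference was -0.10 (SE 0.26, adjusted p = 0.815, edgeR), with an interval of 2 SE from -0.62 to 0.43. It was 0.75 (SE 0.52) for TRAC and -1.30 (SE 0.53, adjusted p = 0.119) for ZNF711, neither called by edgeR. The TRAC difference moved with replicate 3. It was 1.64 (adjusted p = 0.0342) without VM replicate 3 of all 4 targets and 1.57 (adjusted p = 0.00943, edgeR) without replicate 3 of all 8 groups, called in both. With all libraries kept and no filter it was called at 0.75 (SE 0.21, adjusted p = 0.00701, edgeR). With a replicate block within each protocol the ZNF711 difference was called, at -1.35 (SE 0.45, adjusted p = 0.0384, edgeR). It was also called with no filter (adjusted p = 5.63e-08), with only the groups compared (4.06e-04) and without replicate 3 of all 8 groups (0.00586, edgeR). It was not called with 1 block for both protocols (0.0906) or without VM replicate 3 (0.0535, edgeR). The 3 AM ZNF711 libraries lay below the 3 VM ones, and 32.9% of genes did not overlap there in either direction.

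The balance of the 2 platelet-derived growth factor receptors differed within VM as well as between protocols. Per kb of exon, PDGFRA exceeded PDGFRB 4.59-fold to 14.0-fold in the 12 AM libraries. In replicates 1 and 2 of VM TRAC, LHX2 and ZNF503 the ratio was 1.57 to 7.23. In replicate 3 of those groups it was 0.641 to 0.870, and in the 3 VM ZNF711 libraries 0.415 to 0.686, so PDGFRB was the higher per kb there. That order depends in part on the merged exon lengths, 9.73 kb for PDGFRA and 7.14 kb for PDGFRB. In CPM, PDGFRA was the higher in VM TRAC replicate 3 (73.4 against 65.3) and VM LHX2 replicate 3 (63.6 against 53.7). PDGFRB was the higher in CPM in the rest of these libraries. These 6 libraries are the ones with the high hepatic endoderm sums given above, and the part of those cells in the ratio was not tested.

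**Figure D2:**
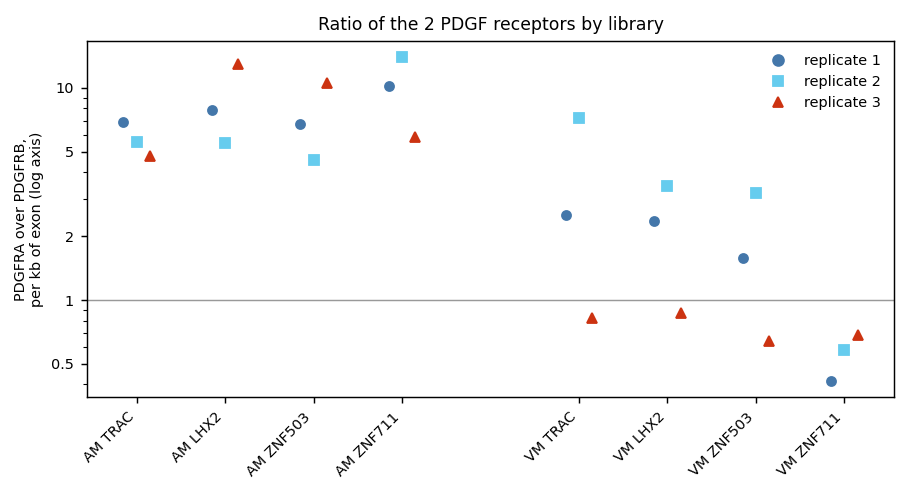
Ratio of PDGFRA to PDGFRB, each as CPM per kb of merged exon (log axis), with a point per library and a line at 1. All 12 AM libraries lie at 4.59 or above, and the 6 VM libraries below 1 are replicate 3 of TRAC, LHX2 and ZNF503 and all 3 of ZNF711.

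Of the secreted matrix genes, DCN was higher and FN1 lower in AM. DCN, a proteoglycan that binds collagen fibrils, was at 8.82, 11.5 and 16.2 CPM for TRAC, 9.90, 9.01 and 10.8 for LHX2, 4.43, 10.9 and 6.48 for ZNF503, and 15.5, 8.83 and 28.3 for ZNF711 in AM. In VM it was at 1.43, 0.617 and 8.02 CPM for TRAC, 1.12, 0.212 and 1.99 for LHX2, 1.87, 1.83 and 4.93 for ZNF503, and 11.1, 10.7 and 7.29 for ZNF711. The VM ZNF711 libraries thus reached the AM range, and VM TRAC replicate 2 and VM LHX2 replicate 2, with 3 counts and 1 count, were at or under the floor. Over the 4 targets DCN was 3.41-fold higher in AM (log2 fold change 1.77, SE 0.32, adjusted p = 0.000133, edgeR). For TRAC alone the difference was 1.78 (SE 0.61, adjusted p = 0.0629, edgeR), not called, and with the replicate block it was 1.95 (SE 0.52, adjusted p = 0.00948). Without a block it was called by DESeq2 (1.80, adjusted p = 0.0259). In edgeR it was called with scaling to library size alone (1.89, adjusted p = 0.0412) and with no filter (1.78, adjusted p = 7.28e-04). Relative log expression scaling and a filter on CPM gave no call. Without VM TRAC replicate 3 the TRAC difference was 3.54 and called (adjusted p = 6.36e-04, edgeR). LHX2 alone gave 3.12 (SE 0.72, adjusted p = 0.00661, edgeR), and the smaller ZNF503 and ZNF711 differences, 1.33 (SE 0.64) and 0.85 (SE 0.58), were not called.

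FN1, the fibronectin that links cells to matrix through integrins, was at 4365 to 6472 CPM in AM, with a median of 5370 CPM. In VM it was at 5379 to 12110 CPM, with a median of 8312 CPM. The 4 highest libraries were VM TRAC replicate 3 at 12110, VM ZNF711 replicate 3 at 11355, VM ZNF503 replicate 3 at 10633 and VM ZNF711 replicate 2 at 8809 CPM, and the protocols overlapped. FN1 was 1.56-fold lower in AM over the 4 targets (log2 fold change -0.64, SE 0.12, adjusted p = 0.000235, edgeR). By target the difference was called for ZNF711 alone, at -1.08 (SE 0.25, adjusted p = 0.00514, edgeR), where the groups did not overlap (as for 32.9% of genes), and it was -0.56 (SE 0.25) for TRAC and for ZNF503 and -0.35 (SE 0.25) for LHX2. With a replicate block within each protocol all 4 targets were called for FN1, TRAC at -0.51 (adjusted p = 9.18e-04), LHX2 at -0.35 (adjusted p = 0.0236) and ZNF503 at -0.52 (adjusted p = 7.93e-04, edgeR). With no filter and no block, TRAC (-0.55, adjusted p = 0.0145) and ZNF503 (-0.55, adjusted p = 0.0183, edgeR) were called and LHX2 was not. When counts were summed over the 4 targets, so that the 3 numbered sets of each protocol were the replicates, the FN1 call was lost at -0.64 (SE 0.23, adjusted p = 0.113, edgeR), in a fit that called 11.5% of genes. Those of PDGFRA, DDR2 and DCN were kept in that fit, which was added after seeing the data.

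FBLN1, a matrix protein of basement membranes and elastic fibres, had AM levels of 126, 134 and 195 CPM for TRAC, 85.3, 109 and 158 for LHX2, 123, 155 and 147 for ZNF503, and 160, 153 and 219 for ZNF711. Its VM levels were 74.0, 78.1 and 207 CPM for TRAC, 80.1, 67.1 and 155 for LHX2, 86.9, 79.2 and 174 for ZNF503, and 147, 175 and 215 for ZNF711. Replicates 1 and 2 of VM TRAC, LHX2 and ZNF503 were low and the other 6 VM libraries were in the AM range. The log2 difference over the 4 targets was 0.22 (SE 0.20, adjusted p = 0.438, edgeR), which the replicate block turned into a call at 0.27 (SE 0.10, adjusted p = 0.0435, edgeR). With the block within each protocol it was 0.28 (SE 0.08, adjusted p = 0.00883, edgeR). On counts summed over the targets it was not called, at 0.28 (SE 0.12, adjusted p = 0.136) with the block and 0.21 (adjusted p = 0.692, edgeR) without. Without VM replicate 3 of all 4 targets it was 0.64 (SE 0.11, adjusted p = 8.71e-05, edgeR). Without replicate 3 of all 8 groups it was 0.47 (SE 0.09, adjusted p = 3.48e-04, edgeR).

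LUM, a small proteoglycan of collagen fibrils like DCN and its neighbour on chromosome 12, gave no call between the protocols. Its AM levels were 6.66, 3.73 and 14.0 CPM for TRAC, 7.35, 6.95 and 38.3 for LHX2, 2.30, 3.28 and 9.62 for ZNF503, and 23.0, 9.64 and 22.0 for ZNF711. Its VM levels were 4.49, 5.14 and 16.8 CPM for TRAC, 5.99, 3.18 and 13.4 for LHX2, 5.84, 5.09 and 15.8 for ZNF503, and 16.7, 26.3 and 20.2 for ZNF711. Replicate 3 was the highest of its group in the TRAC, LHX2 and ZNF503 groups of both protocols, and the spread within a group exceeded that between protocols. The log2 difference was 0.02 (SE 0.38, adjusted p = 0.983, edgeR), with an interval of 2 SE from -0.74 to 0.77. For TRAC alone it was -0.15 (SE 0.74).

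POSTN and THY1 also gave no call between the protocols. POSTN, a matricellular protein of cardiac cushions and activated fibroblasts, was at 10.4 to 26.8 CPM in AM and 9.58 to 18.2 CPM in VM, with a median of 14.0 CPM in both. Its log2 difference was 0.14 (SE 0.14, adjusted p = 0.497, edgeR), and an interval of 2 SE ran from -0.15 to 0.42. THY1 was at 8.75 to 23.2 CPM in AM and 6.78 to 21.0 CPM in VM, with a log2 difference of 0.25 (SE 0.18, adjusted p = 0.29, edgeR). Without VM replicate 3 of all 4 targets, THY1 was 0.43 higher (SE 0.16) and called, at an adjusted p of 0.0412 (edgeR).

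**Figure D3:**
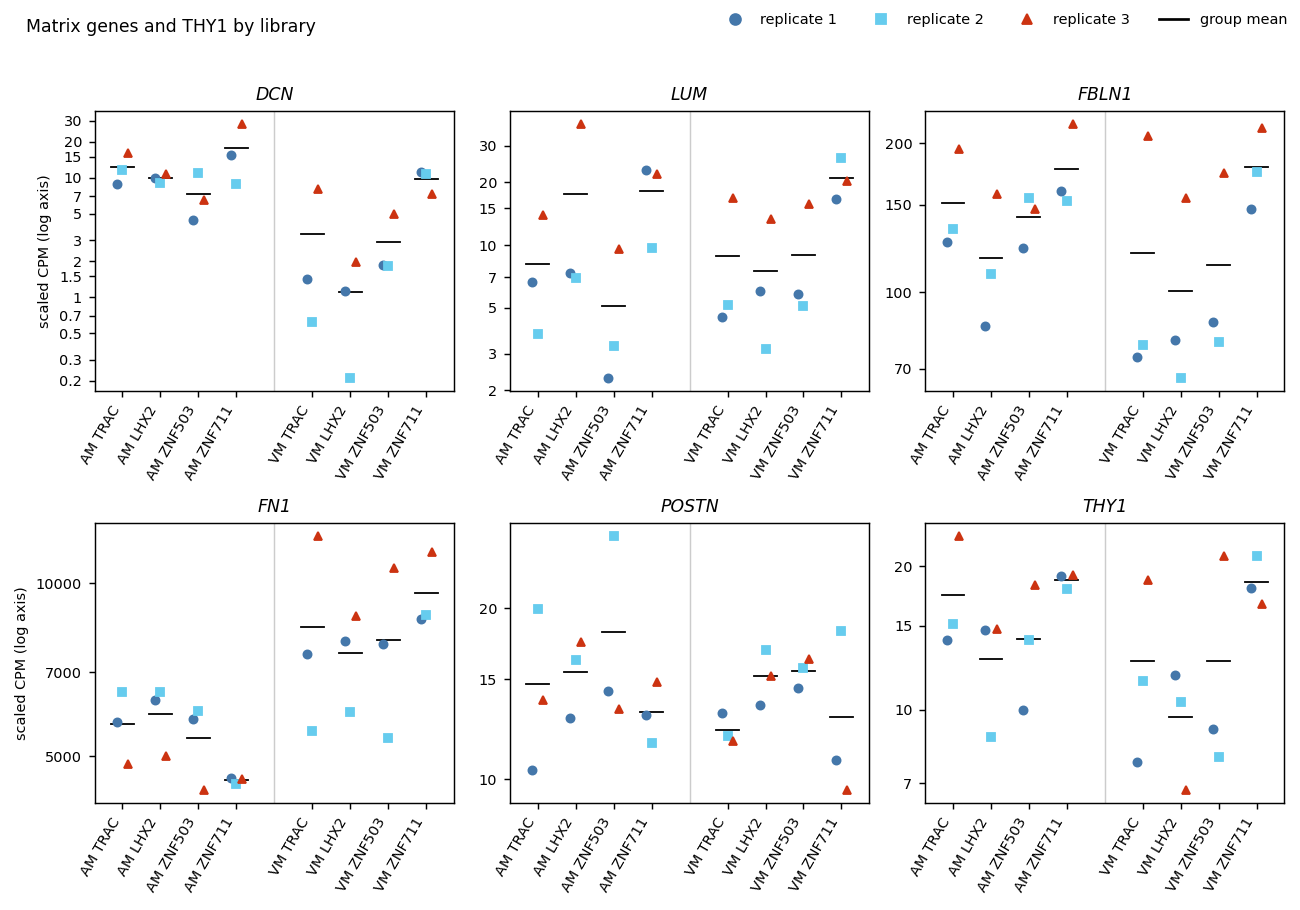
Scaled CPM (log axes, a different range in each panel) of 5 matrix genes and THY1 in each of the 24 libraries, with a point per library, colour and shape for the replicate number and a bar for the group mean of 3. In VM TRAC, LHX2 and ZNF503, replicate 3 is the highest of its group for DCN, LUM, FBLN1 and FN1, and the 3 ZNF711 libraries lie near or above those replicates for DCN and LUM.

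In the control target alone, AM TRAC against VM TRAC, 2 of the 9 members were called, PDGFRA (2.31, SE 0.19, adjusted p = 5.66e-09) and DDR2 (1.36, SE 0.22, adjusted p = 0.000127, edgeR), against 11.3% of all genes tested. For LHX2 the count was 3 of 9 against 8.56%, with DCN added. For ZNF503 it was 2 of 9 against 8.86%, PDGFRA and DDR2. For ZNF711 it was 2 of 9 against 13.2%, PDGFRA higher and FN1 lower. In TRAC the uncalled differences were 0.27 (SE 0.28) for POSTN, 0.33 (SE 0.39) for FBLN1 and 0.45 (SE 0.35) for THY1. In the fit without a block, PDGFRA was the only member called for all 4 targets. For FBLN1 in TRAC, leaving out 1 library moved the difference between 0.08 and 1.0 with no call, and it was called without VM replicate 3 of all 4 targets (0.98, adjusted p = 0.00466) and without replicate 3 of all 8 groups (0.78, adjusted p = 0.00574, edgeR).

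**Figure D4:**
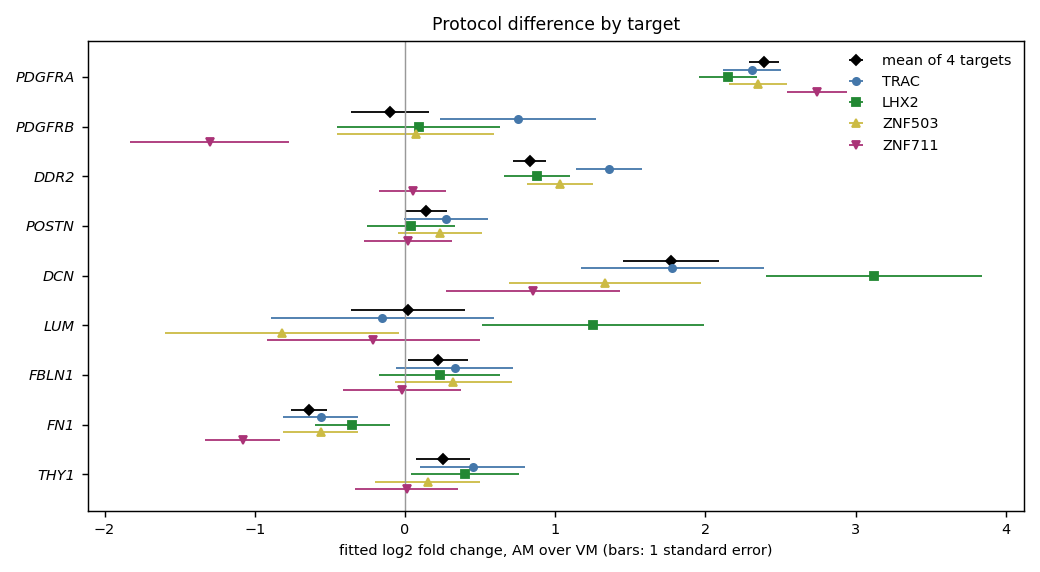
Fitted log2 fold change of AM over VM for the 9 members tested, with bars of 1 standard error, for the mean of the 4 targets and for each target alone. PDGFRA lies between 2.15 and 2.74 for every target, while DDR2 is at 0.05 and PDGFRB at -1.30 for ZNF711.

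Genes that work with these markers were described by lists written from general knowledge. The PDGF list held the 4 ligand genes and the receptor-like gene PDGFRL. PDGFC, a ligand of PDGFRA, rose in AM (0.81, SE 0.11) and PDGFD, a ligand of PDGFRB, fell (-1.85, SE 0.16), and the other 3 were not called. Of 12 mesenchymal transcription factors tested, 5 were higher in AM and 1 lower, with TCF21, a factor of epicardium and cardiac fibroblasts, at 3.31 (SE 0.35), OSR1 at 3.08 (SE 0.28), TBX18, an epicardial and sinus node factor, at 1.88 (SE 0.34) and ZEB2 at 0.58 (SE 0.08). These shares are to be read against the 34.5% of all genes called.

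Matrix genes moved in both directions. Over the 4 targets, 34.5% of all genes tested were called, 16.8% higher and 17.6% lower, and the counts here are to be read against that. Of 5 small leucine-rich proteoglycans tested out of 13 listed, PODN was higher in AM (3.51, SE 0.24) and ECM2 (-3.04, SE 0.59) and BGN (-1.01, SE 0.23) lower. Of 14 fibulin and elastic fibre genes 3 were higher and 5 lower, FBLN2 at 0.90 and FBN2, a fibrillin, at -1.33. Of 8 fibrillar collagen genes with DDR1, 2 were higher and 2 lower, COL3A1 at 1.67 (SE 0.20) and COL5A3 at -4.65 (SE 0.38). Collagen processing leaned the other way, with 1 of 12 tested genes higher and 8 lower. They included the crosslinking enzymes LOX at -2.97 (SE 0.45) and LOXL2 at -1.48 (SE 0.11). Of 10 matricellular genes 5 were higher and 3 lower, with CCN3 at 4.08 (SE 0.55) and CCN1 at -1.92 (SE 0.33). Among 11 fibronectin receptor subunits 4 were higher and 3 lower, with the integrin chains ITGA9 at 1.61 and ITGA8 at 1.65 higher and ITGAV at -0.60 lower. Of the 4 serine proteases related to FAP, PREP was higher at 0.23 and DPP4 (-2.12) and DPP9 (-0.26) lower.

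Markers of other cell types differed between the protocols too. The all-gene shares beside these counts over the 4 targets are again 34.5% called, 16.8% higher and 17.6% lower. Of 10 endothelial genes 7 were higher in AM and none lower, with ERG at 1.23 (SE 0.16) and CDH5 at 0.84 (SE 0.12). Of 12 smooth muscle and pericyte genes 3 were higher and 8 lower, MYH11 at 6.88 (SE 0.31) and CSPG4, a pericyte proteoglycan, at -1.20 (SE 0.09). Of 10 hepatic endoderm genes 7 were lower in AM and none higher, with SERPINA1 at -5.43 (SE 0.51). Of 8 epicardial genes tested 2 were higher and 2 lower, led by BNC1 at 1.47 (SE 0.15), and the defining marker WT1 had 0 to 22 counts in a library. Of 12 cardiomyocyte genes 8 were lower in AM and none higher over the 4 targets, led by MYH7, the ventricular myosin heavy chain, at -3.74 (SE 0.28). By target their median was -0.82 for TRAC, -0.92 for LHX2 and -1.1 for ZNF503, but 0.48 for ZNF711. For ZNF711, 10 of the 12 were above 0, with 2 called higher and 1 lower, against 13.2% of all genes. Pluripotency genes gave 1 higher and 3 lower of 6 tested, and neural genes 1 higher and 2 lower of 6. The part of any of these cell types in the members' differences was not tested.

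The groups labelled for LHX2, ZNF503 and ZNF711 were then compared with TRAC within each protocol, 6 comparisons that share the TRAC libraries of their protocol. No member was called in any of them by edgeR without a block. All-gene calls were also few: 0% of genes for LHX2, ZNF503 and ZNF711 in AM and for LHX2 and ZNF503 in VM, and 0.0169% (3 genes) for ZNF711 in VM. For LHX2 in AM the all-gene share rose to 1.13% (201 genes) with the replicate block and 3.11% (552 genes) with the block within each protocol, and to 167 genes in a fit of the 2 groups alone, with no member called in any of them. At an unadjusted p under 0.05 the number of genes was 1372, 309 and 618 for LHX2, ZNF503 and ZNF711 in AM and 463, 274 and 1666 in VM, and DESeq2 called no member in the 6 comparisons. The member with the lowest p was DDR2 for LHX2 in AM (-0.46, SE 0.21, adjusted p = 0.63), DCN for ZNF503 in AM (-0.74, SE 0.58, adjusted p = 1) and DDR2 for ZNF711 in AM (-0.68, SE 0.21, adjusted p = 1, edgeR). In VM it was DCN for LHX2 (-1.63, SE 0.74, adjusted p = 1), POSTN for ZNF503 (0.34, SE 0.29, adjusted p = 1) and DDR2 for ZNF711 (0.63, SE 0.22, adjusted p = 0.327, edgeR).

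Some groups did not overlap although the test made no call. POSTN in VM was at 13.1, 11.9 and 11.7 CPM for TRAC, below all 3 LHX2 libraries (13.5, 16.9 and 15.2) and all 3 ZNF503 libraries (14.5, 15.7 and 16.3). Of all genes tested, 5.12% for LHX2 and 4.3% for ZNF503 in VM did not overlap either. In AM, all 3 ZNF711 libraries lay below the 3 TRAC libraries for DDR2 and for FN1, as 11.7% of genes did in one direction or the other. FN1 in AM ZNF711 was at 4581, 4466 and 4567 CPM against 4835 to 6472 CPM for TRAC.

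For ZNF711, which encodes a zinc finger transcription factor, the result in VM depended on how the replicate number was treated. In VM, all 3 ZNF711 libraries were above all 3 TRAC libraries for PDGFRB and DDR2, which was so in either direction for 10.1% of genes. The mean PDGFRB level was 84.5 ± 5.48 CPM (SD, n = 3) for ZNF711 and 34.1 ± 28.2 CPM for TRAC, a log2 difference of 1.29 (SE 0.53, adjusted p = 0.446, edgeR). DCN averaged 9.69 ± 2.08 against 3.35 ± 4.06 CPM, LUM 21.1 ± 4.82 against 8.80 ± 6.92 CPM, and FBLN1 179 ± 34.2 against 120 ± 75.9 CPM. PDGFRA averaged 63.9 ± 12.1 against 89.3 ± 15.1 CPM. In 8 of the 9 members tested the fitted difference was above 0, PDGFRA being the exception at -0.48 (SE 0.19), with a median of 0.57 beside -0.005 over all genes tested.

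The SDs of VM TRAC were large because replicate 3 was far above the other two for most of these genes. In VM, replicate 3 of TRAC was 3.53-fold the mean of replicates 1 and 2 for PDGFRB, 7.85-fold for DCN, 3.49-fold for LUM, 2.73-fold for FBLN1 and 1.85-fold for FN1. For PDGFRA it was 0.754-fold. The same direction held in VM LHX2 and VM ZNF503 for these 6 genes, with PDGFRB at 1.91-fold and 2.29-fold and PDGFRA at 0.588-fold and 0.685-fold. In VM ZNF711, replicate 3 was 0.936-fold for PDGFRB, 0.670-fold for DCN and 1.30-fold for PDGFRA. POSTN did not follow, at 0.939-fold to 1.08-fold in the 3 groups. In AM, replicate 3 was the highest of its group for FBLN1 in 3 of the 4 groups, but PDGFRB was at 0.469-fold in LHX2 and 1.68-fold in ZNF711.

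Over all genes, libraries of the same number deviated together in each of the 10 group pairs checked (the protocols of a target, and a target with TRAC), so fits with the replicate number as a block were read beside the one without. A block takes the shift of a number to be the same in each group. PDGFRB, DCN, LUM and DDR2 broke this in VM. Replicate 3 over the mean of replicates 1 and 2 was 3.53, 7.85, 3.49 and 1.17 in TRAC. In ZNF711 it was 0.936, 0.670, 0.940 and 0.746. With 1 block for both protocols, 1 member was called for ZNF711 against TRAC in VM, LUM at 1.60 (SE 0.41, adjusted p = 0.0397), against 2.27% of all genes tested. With a block within each protocol 5 of 9 were called, all higher, against 8.35% of genes. These were PDGFRB at 1.57 (SE 0.45, adjusted p = 0.0499), DCN at 1.87 (SE 0.54, adjusted p = 0.0328), LUM at 1.51 (SE 0.40, adjusted p = 0.0204), FBLN1 at 0.72 (SE 0.17, adjusted p = 0.00998) and DDR2 at 0.64 (SE 0.17, adjusted p = 0.0114, edgeR). Without VM replicate 3 of all 4 targets, 4 of 9 were called against 4.83% of genes. DCN at 3.37, PDGFRB at 2.22 and FBLN1 at 1.08 were higher and PDGFRA at -0.75 was lower. Leaving out VM TRAC replicate 3 alone gave 2 members called, DCN at 3.19 (SE 0.66, adjusted p = 0.0128) and PDGFRB at 2.17 (SE 0.54, adjusted p = 0.0375, edgeR), beside 637 called genes in that fit against 3 with the library in. For both genes that library, at 8.02 and 65.3 CPM, was the TRAC library nearest to ZNF711. A fit of the VM ZNF711 and VM TRAC groups alone called 0 of 15222 genes.

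The same VM ZNF711 libraries were high in other cell markers. All 10 hepatic endoderm genes had a fitted difference above 0 against VM TRAC, with a median of 0.80, and all 12 cardiomyocyte genes one below 0, with a median of -0.71, with none of them called by edgeR without a block. The summed epicardial markers were 594 to 769 CPM in VM ZNF711, 624 to 817 CPM in replicate 3 of the other VM groups and 363 to 416 CPM in their replicates 1 and 2. KRT19 was the largest term of that sum, at a VM median of 354 CPM, ahead of LRRN4 at 59.2. BNC1 was at 10.4 and WT1 at 1.12 CPM, so the sum says little about them. The summed pluripotency markers were 313 to 406, 236 to 287 and 109 to 151 CPM in the same order, with NANOG at 0 to 6 counts. The summed smooth muscle and pericyte markers were 1132 to 1319 CPM in VM ZNF711, within the 956 to 1526 CPM of the other VM groups. Whether a different mix of cells underlies the members' levels was not tested.

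**Figure D5:**
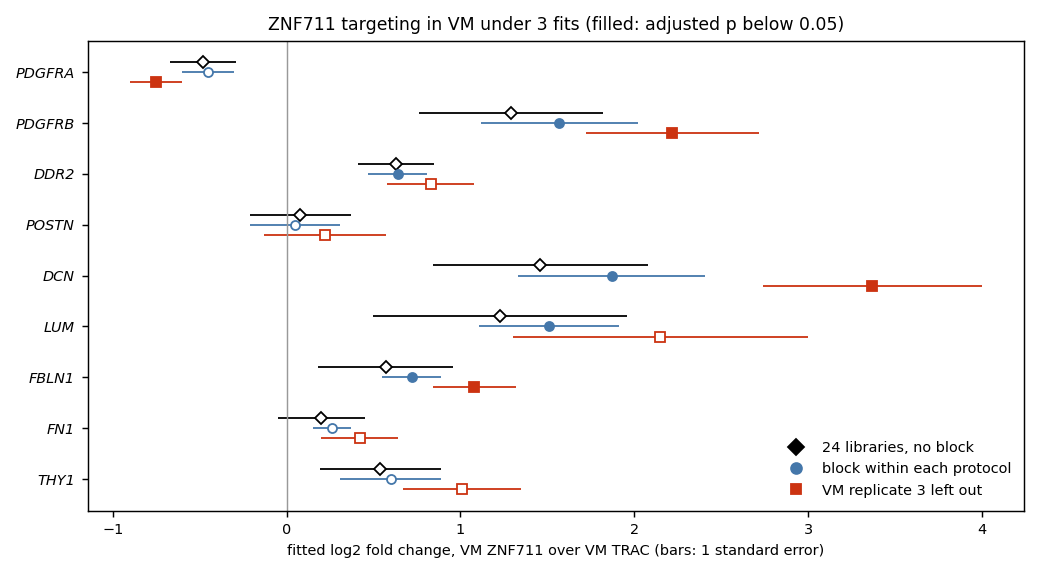
Fitted log2 fold change of VM ZNF711 over VM TRAC for the 9 members tested, with bars of 1 standard error, in 3 fits, with filled points where the adjusted p is below 0.05. No point is filled without a block, 5 are filled with a block within each protocol and 4 with VM replicate 3 left out.

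Whether a target acted differently in the protocols was tested as an interaction, the difference from TRAC in AM minus that in VM. No member was called for LHX2, ZNF503 or ZNF711, against 0%, 0% and 0.00564% of genes. At an unadjusted p under 0.05 there were 660, 346 and 1135 genes, and DESeq2 called no member. DDR2 had the lowest p of the members in all 3, at -0.48 (SE 0.31) for LHX2, -0.33 (SE 0.31) for ZNF503 and -1.31 (SE 0.31, adjusted p = 0.389, edgeR) for ZNF711. In AM the ZNF711 libraries were lower in DDR2 than TRAC, at 48.9 ± 5.54 against 78.2 ± 11.8 CPM, and in VM they were higher, at 47.3 ± 7.59 against 30.5 ± 5.05 CPM (SD, n = 3 each). DDR2 was thus at about one level in both ZNF711 groups. With the block within each protocol the ZNF711 interaction was called for DDR2 (-1.31, SE 0.23, adjusted p = 7.88e-04) and FN1 (-0.57, SE 0.16, adjusted p = 0.0448, edgeR), against 2.54% of genes. In that fit DDR2 was also called lower in AM ZNF711 than in AM TRAC, at -0.66 (SE 0.16, adjusted p = 0.0394), against 0.53% of genes.

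The genes whose levels followed each member most closely were found by correlation of log2 CPM over the 24 libraries after subtracting each protocol's mean. These are descriptions, since libraries of a number or a target share variation and all share their depth. For PDGFRA they were PCYT1A (r = 0.92), KIAA0319 (0.91) and ANTXR2 (0.87). For PDGFRB they were SCUBE1 (r = 0.93) and the fibrillar collagens COL1A2 (0.92) and COL3A1 (0.92). DDR2 was followed by TENM3 (r = 0.90), EMILIN1 (0.89), an elastic fibre gene, and PCDH18 (0.88). DCN was followed by AMOT, PIEZO2 and PCSK5 (each r = 0.89), and LUM by SYTL2 (0.94), GRHL2 (0.91) and TBX3 (0.90). FBLN1 was followed by 3 genes abundant in liver, APOE (r = 0.95), SERPINA1 (0.95) and APOA1 (0.94). Without subtracting the protocol means these 3 fell to 0.62, 0.09 and 0.35. FN1 was followed by P3H1 (r = 0.89), a collagen prolyl hydroxylase, ITGB8 (0.88, and 0.08 without centring) and PROM1 (0.86), and THY1 by KCNMA1 (0.81), TMEM37 (0.80) and AMOT (0.79). POSTN had no close follower, with SMU1 and HNRNPR at 0.67 each and MVB12B at 0.62.

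Among the members themselves, the same measure over the 24 libraries set PDGFRA against most of the rest. Its correlation was -0.81 with DCN, -0.73 with FBLN1, -0.68 with PDGFRB and -0.68 with LUM. PDGFRA varied 1.28-fold from lowest to highest in AM and 2.23-fold in VM, so the VM libraries weigh more in these values. Whether they hold within AM alone was not tested. DCN went with FBLN1 (0.81), LUM (0.73) and PDGFRB (0.71), and PDGFRB went with FN1 (0.79). LUM and PDGFRB were weakly related (0.25), and POSTN stayed between -0.24 and 0.24 with every other member. The 9 genes counted in every library therefore did not vary as a single block in these libraries.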

How the data were processed

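The deposited table holds raw gene counts in the unit count, with no normalization by the authors. The submitters' processing notes name STAR and the build GRCh38. The counting program, its strand setting and the annotation release are not given in the sources used here. The labels name polyA RNA in one field and a ribosomal RNA depletion kit in another, which bears on what the counts cover. AM and VM are not spelled out in the labels.

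Each of the 24 count columns matched a library by its title, with 0 left over. Symbols came from a table of gene identifiers, positions and exon lengths from a GENCODE annotation of GRCh38. Of 62757 genes, 23919 had no count. No 2 libraries were identical. Genes were kept by filterByExpr of edgeR (minimum count 10, total 15), which left 17724. They were fitted with edgeR 4.0.16 (R 4.3.3) by quasi-likelihood with robust dispersion, TMM factors of 0.905 to 1.08 and 1 mean per group over 24 libraries, with 16 residual degrees of freedom. The biological coefficient of variation was 25.0%. Benjamini-Hochberg adjustment ran over the 17724 genes within each of 14 contrasts, and a gene was called below 0.05. FAP failed the filter. The fit was tested on simulated counts drawn independently for each library. That check could not cover the variation that libraries of the same number share.

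The members and the 16 lists were chosen with earlier results of these data known. Values are given for all members, full statistics for every member in AM against VM, and elsewhere for members called with or without the block or the member with the lowest p. From each list up to 4 genes with the lowest p could be named, and the 3 genes most like each member were found among those with a mean log2 CPM of 3 or more (prior count 2).

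Libraries with the same number deviated together: over 11428 genes their deviations from the group means correlated at 0.12 to 0.79 in each of the 10 group pairs checked, which meets the limit of 0.1 set for pairing. The replicate block was therefore read beside the fit without it. What the number stands for is not stated. Alternatives were other scalings and filters, DESeq2 1.42.0, only the groups compared, the block in 2 forms and libraries left out. Depth limits DCN, LUM and FAP most. The mean over 4 targets treats 12 libraries a side as replicates although same-numbered ones share variation. An added fit on counts summed over the targets was chosen after seeing the data.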

Additional observations from a re-analysis of the deposited data

Results flagged for a closer look

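For 2 members the difference between ZNF711 and TRAC was not the same in AM as in VM by a test of the difference itself, in the fit with a replicate block within each protocol. DDR2 gave an interaction of -1.31 on the log2 scale (SE 0.23, adjusted p = 7.88e-04, edgeR), with ZNF711 below TRAC in AM and above it in VM in 3 of 3 libraries each. FN1 gave -0.57 (SE 0.16, adjusted p = 0.0448, edgeR), with ZNF711 below TRAC in 3 of 3 libraries in AM and overlapping it in VM. That fit called 2.54% of all genes for the ZNF711 interaction. It takes the shift of a replicate number to be the same in each group of a protocol, which these genes did not follow. For DDR2, replicate 3 over the mean of replicates 1 and 2 was 1.17 in VM TRAC and 0.746 in VM ZNF711. In AM it was 0.840 in TRAC and 1.18 in ZNF711. For FN1 it was 1.85 in VM TRAC and 1.30 in VM ZNF711, and 0.792 and 1.01 in AM. With 1 block for both protocols neither was called, at adjusted p values of 0.0615 for DDR2 and 0.660 for FN1 (edgeR). In the filtered fit without a block neither was called, at 0.389 and 0.922, but with no filter on low counts DDR2 was (-1.32, SE 0.29, adjusted p = 0.00279, edgeR). Among the settings with other libraries left out, the DDR2 interaction was called without VM replicate 3 of all 4 targets (-1.51, adjusted p = 0.0102) and without replicate 3 of all 8 groups (-1.70, adjusted p = 0.00546, edgeR). The FN1 interaction was not called there.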

How the results depend on the processing

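Counts of members called kept within 1.5 times the count without a block in 124 of the 141 comparisons and settings run. The 17 others follow, and the cause was not tested. For AM against VM in TRAC, 2 called (11.3% of all genes) became 5 with no filter (5.87%), 4 with the replicate block within each protocol (23.7%), and 5 without VM replicate 3 (11.1%) or replicate 3 of all 8 groups (8.72%). For AM against VM in ZNF503, 2 (8.86%) became 4 with no filter (4.87%) and in the same fits without replicate 3 (9.18% and 7.99%). For ZNF711 against TRAC in AM, 0 became 1 with the block within each protocol (0.53%). For ZNF711 against TRAC in VM, 0 became 2 with no filter (1.27%), 1 with the replicate block (2.27%), 5 with the block within each protocol (8.35%), 4 without VM replicate 3 (4.83%) and 6 without replicate 3 of all groups (4.97%). For the ZNF711 interaction, 0 became 2 with no filter (0.538%), 2 with the block within each protocol (2.54%) and 3 in both fits without replicate 3 (1.53% and 1.61%). The replicate block changed no other count beyond 1.5 times.

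When single libraries were left out, 4 to 4 members were called for the 4 targets together, 2 to 3 for TRAC, 2 to 3 for LHX2, 2 to 2 for ZNF503 and for ZNF711, 0 to 2 for ZNF711 against TRAC in VM and 0 to 0 in the other comparisons with TRAC and the interactions. The following signs turned. Over the 4 targets PDGFRB went to 0.34 without VM replicate 3 and 0.39 without all replicates 3. LUM went to -0.0007 with relative log expression scaling, -0.05 and -0.08 with the 2 blocks, -0.16 without all replicates 3 and -0.06 in the summed fit with the block. In TRAC, LUM went to 0.73 and 0.10 without VM or all replicates 3. The likeness of ANTXR2 to PDGFRA was -0.27 without centring on protocols. With 1 library left out, PDGFRB over 4 targets ranged from -0.19 to 0.14, LUM from -0.31 to 0.25, POSTN in TRAC from -0.01 to 0.47, LUM in TRAC from -0.79 to 0.75 and DCN for LHX2 against TRAC in VM from -2.31 to 0.12, the last without VM TRAC replicate 3. Genes called for AM against VM over 4 targets numbered 2321 in the summed fit against 6107, and those for ZNF711 against TRAC in VM 1480 with the block within each protocol against 3.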
